A study of Homo sapiens with 4 samples.

Results

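The HSP70 family and its partner chaperones were followed across 4 arrays labelled MCF-10A, a non-cancerous epithelial line from human breast. On 1 of them, non-specific stapled-peptide at 48 h, marker genes went against that label, as given before the results. The members are 10 genes (HSPA1A, HSPA1B, HSPA1L, HSPA2, HSPA5, HSPA8, HSPB1, HSPH1, DNAJB1 and HSP90AA1) out of 20497 genes that could be named on the array, and every probe annotated with a transcript of one of them was taken, which gave 15 of 50590 probes. They were assembled around HSPA1A, which the study lists among its largest changes on these same arrays, so the values of HSPA1A describe how it was chosen and support nothing further. The question was how far its lower signal was shared by the other chaperones.

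Cells were kept in a mammary epithelial medium with growth supplements and cholera toxin and given 10 µM of a stapled peptide. The hydrocarbon staple is meant to stabilize a helix. The groups are stapled-peptide at 24 h, non-specific stapled-peptide at 24 h, stapled-peptide at 48 h and non-specific stapled-peptide at 48 h, with 1 single-colour Agilent array each, all on 1 slide. The labels mark treatment with the non-specific peptide as control, and which peptide of the study each label stands for is not given, so values are reported by label and every difference between the peptides is non-specific minus stapled. No test, p-value or error between cultures can be had from 1 array per condition. Differences are set beside the range over the arrays that resembled each other. Those arrays differ in peptide or time and were grouped because they resembled each other. Their range is thus small by that choice and measures no error of the remaining array.

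Chaperones of the HSP70 family bind unfolded stretches of protein and release them in a cycle driven by ATP. J-domain proteins such as DNAJB1 deliver clients and start the cycle, exchange factors such as HSPH1 reset it, and HSP90 takes over partly folded clients, while small heat shock proteins such as HSPB1 hold unfolded proteins without using ATP. HSPA8 is the constitutive cytosolic member, HSPA1A and HSPA1B are nearly identical copies switched on by heat and protein damage, and HSPA5, also called BiP, serves in the endoplasmic reticulum. The factor HSF1 acts on the stress-inducible genes through heat shock elements, which are repeats of nGAAn in alternating orientation.

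The upstream sequences of the HSPA1 copies are shown because the genes are near-identical copies while the differences of their probes were far apart in size. They are the 250 bases before the start of each gene in RefSeq's annotation of GRCh38.p14, 5′ to 3′ on the strand of the gene, with capitals for the motif GAANNTTC, a pair of nGAAn units facing each other. HSPA1A lies on the plus strand at chr6:31815293-31815542 and HSPA1B on the plus strand at chr6:31827488-31827737.
HSPA1A: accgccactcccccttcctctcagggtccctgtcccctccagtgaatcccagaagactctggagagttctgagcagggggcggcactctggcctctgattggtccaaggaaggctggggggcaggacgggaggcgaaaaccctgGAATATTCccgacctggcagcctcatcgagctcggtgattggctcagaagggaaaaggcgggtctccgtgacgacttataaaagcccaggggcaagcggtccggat
HSPA1B: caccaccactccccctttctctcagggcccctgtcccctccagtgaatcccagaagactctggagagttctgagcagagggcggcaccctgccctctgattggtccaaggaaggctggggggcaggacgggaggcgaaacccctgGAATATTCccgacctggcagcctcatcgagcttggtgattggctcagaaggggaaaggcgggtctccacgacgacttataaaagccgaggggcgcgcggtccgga
An edit distance of 16 bases separated the 2 stretches, and both carried GAATATTC at nearly the same place, 106 to 99 bases before the start in HSPA1A and 105 to 98 in HSPA1B. HSPA1L starts head to head with HSPA1A, 259 bases away, so that 241 of its 250 upstream bases, read from the opposite strand, are those of HSPA1A and the same GAATATTC lies 161 to 154 bases before its own start.

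Stretches of 30 bases around the motif in the partner genes are shown to compare it across roles, taken from the same source and written on the strand of each gene. They lie at chr11:123062168-123062197 on the minus strand for HSPA8, chr7:76302480-76302509 on the plus strand for HSPB1, chr19:14518456-14518485 on the minus strand for DNAJB1 and chr14:102087109-102087138 on the minus strand for HSP90AA1. For HSPA5, at chr9:125241385-125241414 on the minus strand, the capitals mark the endoplasmic reticulum stress element, which is CCAAT and CCACG with 9 bases of any kind between them.
HSPA8: ggccccttctgGAAGGTTCtaagatagggt
HSPB1: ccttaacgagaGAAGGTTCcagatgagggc
DNAJB1: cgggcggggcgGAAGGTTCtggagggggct
HSP90AA1: gggttcttccgGAAGGTTCgggaggcttct
HSPA5: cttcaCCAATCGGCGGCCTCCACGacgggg
GAANNTTC occurred, on either strand, in the 250 upstream bases of 7 of the 10 members and of 5.78% of 35116 annotated starts, some genes having several starts. The longer form, which is GAANNTTC with NNGAA after it or TTCNN before it, occurred in HSPA8 and HSP90AA1 and in 0.441% of all starts. The CCAAT box was found in 8 members and 32.0% of starts, and the endoplasmic reticulum stress element, which contains a CCAAT box, in HSPA5 alone among the members and in 0.074% of starts. HSPA2, HSPA5 and HSPH1 had no GAANNTTC in these windows. DNAJB1 and HSP90AA1 also have annotated starts, apart from those of the printed stretches, whose windows held no GAANNTTC. A match describes letters in a window and not a site that was shown to be bound.

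The array of non-specific stapled-peptide at 48 h stood apart from the other 3 over the whole set of probes, and the differences of the non-specific peptide at 48 h rest on it. Over the probes that passed background on at least 1 array of each pair, its log2 signals had correlations of 0.799 to 0.807 with the others, which had 0.976 to 0.978 among themselves. It was not a dim array, since 65.7% of its spots were well above background against 62.5 to 64.6% on the others, and no spot was saturated. Of 12 markers of basal mammary epithelium, 12 were well above background on each of the other 3 arrays and 10 on this one, where KRT6A and COL17A1 were not, and all 12 were at least 2-fold lower than with stapled-peptide at 48 h. Their summed signal was 17.25 to 17.30 on the log2 scale on the other arrays and 9.31 on this one. Of 7 markers of an embryonic kidney line, a list chosen with earlier results of these arrays known, 2 to 3 were well above background on the others and 6 on this one, with summed log2 signals of 9.61 to 9.69 and 16.10. KRT5, a basal keratin, had log2 signals of 14.54 to 14.65 on the other arrays and 5.02 on this one, and LIN28B, an embryonic RNA-binding protein, was not well above background on the others and had 12.86 on this one. The markers of this array thus go against its label, and whether its RNA came from MCF-10A cells was not tested. In every difference that uses it, another source of RNA and an effect of the peptide cannot be told apart. In RNA of whole cultures fewer cells of a type cannot be told apart from less RNA per cell.

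HSPA1A, the stress-inducible cytosolic HSP70, had log2 signals of 12.08 (stapled-peptide) and 12.12 (non-specific stapled-peptide) at 24 h, and of 12.05 and 2.09, in the same order, at 48 h. The first 3 arrays were within 0.07 of each other and the last did not pass background. The lowest signal well above background on that array set a bound on the difference of −8.48, so that HSPA1A was at least 357-fold lower with non-specific stapled-peptide than with stapled-peptide at 48 h, whereas the signals as measured differed by −9.96. The probe (A_23_P111132) was printed 10 times on each array. Before normalization its spots ranged from 4343 to 4971 and from 4352 to 4815 at 24 h, and at 48 h from 3684 to 3918 for stapled-peptide, where 1 spot marked as an outlier was left out, and from 2.62 to 9.94 for the non-specific peptide. On the last array 0 of 10 spots carried the mark for well above background. The spread between spots was 0.03 to 0.05 (SD, log2 scale) on the first 3 arrays and 0.63 on the last, and it describes repeated spots and says nothing of cultures.

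**Figure D1:**
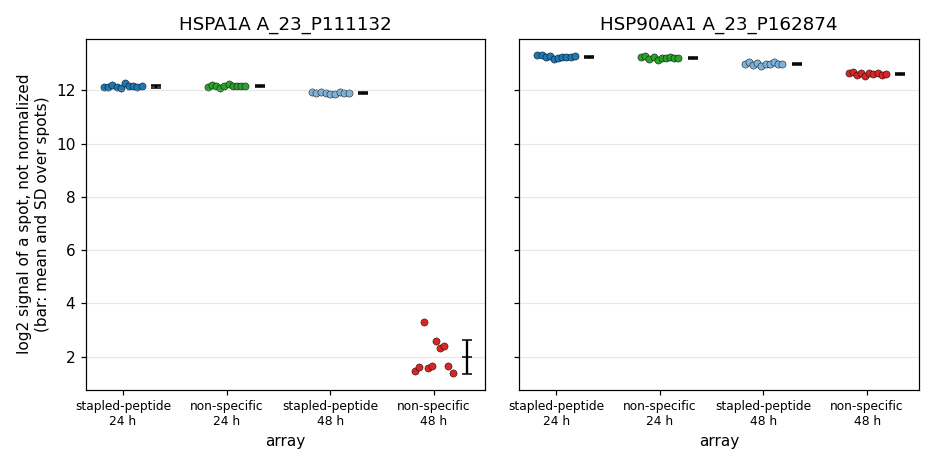
Log2 signals of the single spots, before normalization between arrays, of the HSPA1A probe (left) and of the HSP90AA1 probe with as many spots (right) on the 4 arrays; each point is a spot and the bars give the mean and SD over spots. All HSPA1A spots of non-specific stapled-peptide at 48 h lie far below those of the other arrays, while the HSP90AA1 spots of that array lie close to the others.

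HSPA1B, the neighbouring copy of HSPA1A, was lower on the same array by far less. Its log2 signals were 11.41 and 11.45 at 24 h and 11.61 and 9.87 at 48 h, the non-specific peptide being second in each pair here and for the genes that follow. The difference at 48 h was −1.74, or 3.35-fold lower, against a range of 0.21 over the other 3 arrays, and unlike HSPA1A the gene was well above background on every array. The transcripts of these copies are near-identical and the sequences of their probes were not used here, so how far each probe takes up RNA of the other copy is uncertain.

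HSPA1L, the relative that shares the upstream stretch of HSPA1A and is best known from testis, had low log2 signals of 6.13 and 5.76 at 24 h and 5.60 and 4.69 at 48 h. Its difference between the peptides at 48 h was −0.91, and its other 3 arrays spread over 0.53, the widest range among the members. HSPA2, another relative best known from testis, had 7.17 and 6.95 at 24 h and 6.90 and 3.59 at 48 h. HSPA2 did not pass background on the last array, which makes its difference of −3.31, at least 9.90-fold lower, a bound.

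HSPA8, the constitutive chaperone of the cytosol, had log2 signals of 13.60 and 13.61 at 24 h and of 13.51 and 10.98 at 48 h. The 3 similar arrays were within 0.10, and at 48 h HSPA8 was 5.79-fold lower with non-specific stapled-peptide (−2.53). HSPA5, the HSP70 of the endoplasmic reticulum, had 11.04 and 11.05 at 24 h and 11.11 and 10.02 at 48 h. Its difference of −1.09 was the smallest that passed 2-fold and that of HSPA1L, −0.91, the nearest that did not. The side of 2-fold depended on the processing for both: HSPA5 had −0.87 without normalization between arrays and −0.97 after the normexp background correction, and HSPA1L had −1.07 when arrays were scaled to their 75th percentile.

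Among the partners, DNAJB1, the J-domain protein that works with the inducible HSP70 proteins, had log2 signals of 9.79 and 9.70 at 24 h and of 9.84 and 8.02 at 48 h. It was 3.54-fold lower with non-specific stapled-peptide at 48 h (−1.82), with the other arrays within 0.14. HSPB1, the small heat shock protein also called HSP27, was measured by 3 probes. Its brightest, A_21_P0013662, had 15.01 on both arrays at 24 h and 15.05 and 12.39 at 48 h, a difference of −2.66 at 48 h, or 6.32-fold lower. The other HSPB1 probes differed by −2.44 and −2.29, so all 3 gave the same direction and a similar size.

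HSPH1 did not share the lower signal, and HSP90AA1 was lower by less than 2-fold. HSPH1, the HSP110 exchange factor of HSP70, had log2 signals of 11.55 and 11.58 at 24 h and of 11.62 and 11.65 at 48 h at its brighter probe, and its probes differed between the peptides at 48 h by 0.03 and 0.04. The sign of so small a value depended on the scaling, and the brighter probe had −0.11 when arrays were scaled to their 75th percentile. HSP90AA1, the stress-inducible cytosolic HSP90, had 15.30 and 15.37 at 24 h and 15.34 and 15.05 at 48 h at its brightest probe, a difference at 48 h of −0.29 against a range of 0.08 over the other 3 arrays. Its other probes had −0.51 and −0.35, against ranges of 0.07 and 0.24, and all 3 were lowest on the same array. Values below 0 were common in this comparison, at 8360 of 17109 genes, so these small ones do not set HSP90AA1 apart. Before normalization the HSP90AA1 probe printed 10 times had median spot signals of 9789 and 9593 at 24 h, then of 8179 and 6330 at 48 h, with a spread between spots of 0.04 to 0.05 (SD, log2 scale) on each array.

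**Figure D2:**
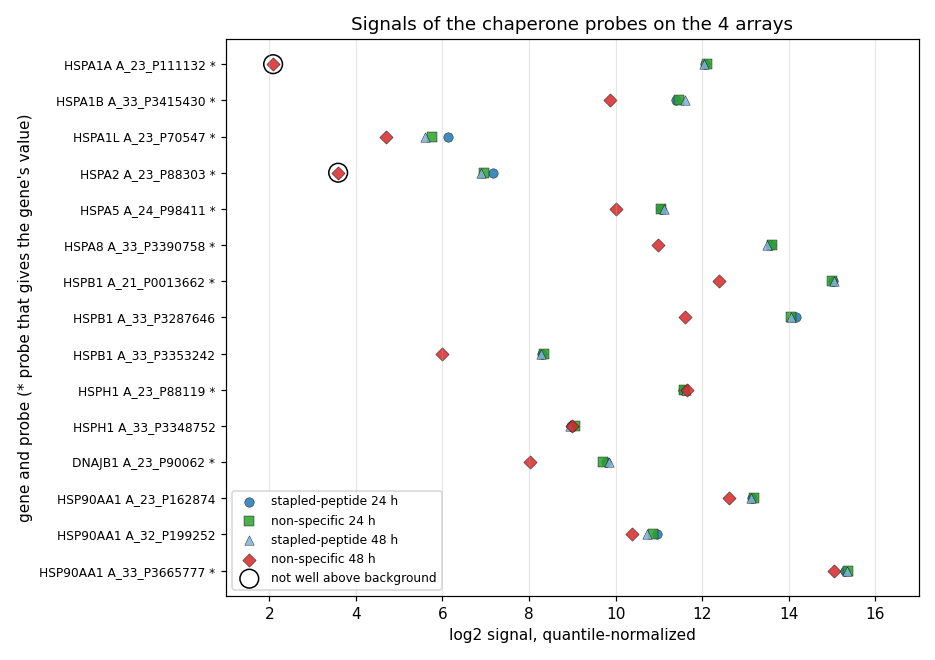
Quantile-normalized log2 signals (x axis) of the 15 probes of the chaperone genes (y axis) on the 4 arrays, 1 point per array; rings mark probes not well above background. For 13 of 15 probes the red point, the 48 h array of the non-specific peptide, is the lowest, and for most of them the other 3 arrays nearly coincide. The same count over all probes of the array was not made.

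Over the whole set at 48 h, 7 of the 10 members were at least 2-fold lower with non-specific stapled-peptide, against 19.8% of 17109 genes with a difference, and 0 were at least 2-fold higher, against 21.2%. The median difference was −1.78 for the members and 0.03 for all genes. Since HSPA1A was picked from this contrast, and the others were set around it with results known, these counts are a description of the members. The 2-fold count was 5 when dim probes were dropped in place of being bounded, where HSPA1A and HSPA2 have no value, and between 6 and 8 under the other settings that kept 2-fold. At 10-fold HSPA1A passed, and the bound of HSPA2, at least 9.90-fold, does not place that gene on either side.

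The lowest signal of the 4 arrays was that of the non-specific peptide at 48 h for 9 of the 10 genes, HSPH1 being the exception, and for 13 of the 15 probes. How often this held over all genes and probes was not counted. Between the peptides at 48 h, 9 members were below 0, and so were 8360 of 17109 genes. Background correction with normexp, which compresses dim signals, moved HSPA1A to −5.89, HSPA2 to −1.37 and HSPA1L to −0.36, without a change of direction. The direction was thus common to most of the members, among them HSPA1A, which was chosen from this contrast. The sizes varied, also among the genes measured on every array. Of these, the 5 genes past 2-fold had −1.09 to −2.66, while HSP90AA1 differed by −0.29 and HSPH1 by 0.03. HSPA1A and HSPA2, which did not pass background on the array of the non-specific peptide at 48 h, had bounds of −8.48 and −3.31 on the log2 scale.

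**Figure D3:**
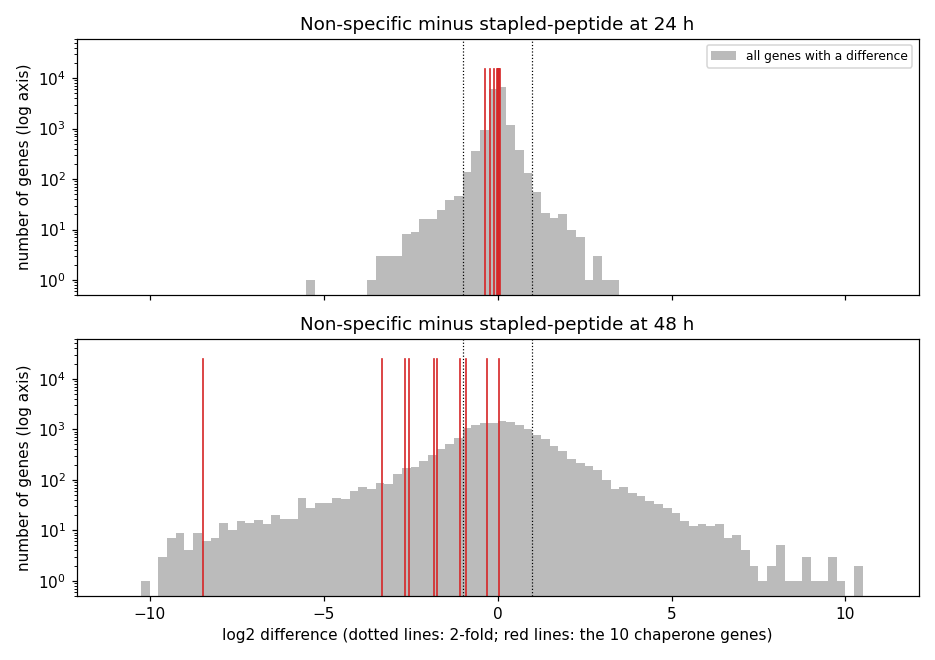
Number of genes (log axis) by log2 difference between the peptides, non-specific minus stapled, at 24 h (top) and 48 h (bottom); red lines are the 10 chaperone genes and dotted lines mark 2-fold. At 24 h all 10 lie between −0.37 and 0.08, and at 48 h they spread from −8.48 to 0.03 within a far wider distribution of all genes.

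At 24 h the peptides gave nearly the same chaperone signals. Of the 10 members, 0 were at least 2-fold lower and 0 at least 2-fold higher, against 1.04% and 0.838% of 16225 genes, with a median of 0.004 and a range from −0.37 (HSPA1L) to 0.08 (HSP90AA1). With stapled-peptide the signals also hardly moved from 24 h to 48 h, where 0 members passed 2-fold in either direction, against 1.13% of 16135 genes lower and 0.923% higher, and their differences ran from −0.53 for HSPA1L to 0.21 for HSPA1B. With non-specific stapled-peptide 8 members were at least 2-fold lower at 48 h than at 24 h, against 20.1% of 17294 genes lower and 21.3% higher, and 0 members were higher. HSPA1A and HSPA2 had bounds of −8.55 and −3.36 in this comparison. HSPA8 had −2.63, HSPB1 −2.61, DNAJB1 −1.69, HSPA1B −1.58, HSPA1L −1.07 and HSPA5 −1.02. This comparison shares the array of non-specific stapled-peptide at 48 h with that between the peptides, so the values stand side by side and the one does not bear out the other.

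Further chaperone and stress genes, among them transcription factors, were covered by 7 lists with 82 genes. A difference at 48 h was had for 76. Of these, 10 were at least 2-fold lower and 19 at least 2-fold higher with non-specific stapled-peptide, with a median of 0.22. Endoplasmic reticulum stress genes made up 7 of the 19. The share of all genes at the same call was 19.8% lower and 21.2% higher. At 24 h 0 of 75 were lower and 1, BAG4, a BAG-domain co-chaperone of HSP70, was higher (1.06), while its other probe had −0.15.

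Among 9 HSP70 relatives 1 was at least 2-fold lower and 3 were at least 2-fold higher at 48 h, with a median of 0.48. HSPA14, a ribosome-associated HSP70, had log2 signals of 10.04 and 9.91 at 24 h and of 9.97 and 12.31 at 48 h, a difference of 2.34, and HSPA13 and HSPA12A had differences of 1.77 and 1.17. The gene on the lower side was HSPA12B, with a bound of −1.10. HSPA6, a strictly stress-inducible HSP70, stayed low, with log2 signals of 4.52 and 4.65 at 24 h and of 4.08 and 4.27 at 48 h.

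Of 17 J-domain proteins, which stimulate the ATPase of HSP70, 3 were at least 2-fold lower and 2 at least 2-fold higher, with a median of −0.21. DNAJC15, a mitochondrial member, had log2 signals of 9.03 and 9.02 at 24 h and of 9.08 at 48 h for stapled-peptide but was not well above background on the remaining array, a bound of −5.51. DNAJB4 and DNAJB12 differed by −2.25 and −1.78 and DNAJC2, which sits on the ribosome, by 1.34. Of 5 small heat shock proteins CRYAB, the lens chaperone alpha B-crystallin, had 8.70 and 8.74 at 24 h and 8.70 and 5.01 at 48 h, a difference of −3.69, and HSPB3 had a bound of 1.79 in the other direction.

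Among 10 HSP90 genes and partners FKBP5, a glucocorticoid-inducible co-chaperone of steroid receptors, had the largest difference of the list, −4.05, with log2 signals of 11.09 and 11.18 at 24 h and of 11.05 and 6.99 at 48 h, while its dimmer probe differed by −1.73. TRAP1, the mitochondrial HSP90, differed by 1.65, and CHORDC1 had 1.61 at the probe used, whereas its others had 0.82 and 0.27. The chaperonins, which fold actin and tubulin or mitochondrial proteins in closed chambers, had 0 of 10 at least 2-fold lower and 2 higher, CCT2 (1.24) and CCT7 (1.12), with a median of 0.42.

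Of 12 HSP70 regulators and heat shock factors, 3 were at least 2-fold lower and 2 at least 2-fold higher. BAG3, a co-chaperone that leads HSP70 clients to autophagy and is itself a target of HSF1, had log2 signals of 9.27 and 9.30 at 24 h and of 9.41 and 6.94 at 48 h, a difference of −2.48. SIL1, the exchange factor of HSPA5, differed by −1.24. HSF1 had 13.62 and 13.58 at 24 h and 13.64 and 13.37 at 48 h at its brightest probe, a difference of −0.28, and its other probes had −0.49 and −1.05, the last at a low signal. HSF2, a factor with developmental roles, differed in the other direction, by 2.36, as did BAG2, by 1.39.

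Of 13 endoplasmic reticulum stress genes 7 were at least 2-fold higher and 1 at least 2-fold lower at 48 h, with a median of 1.07. The gene past 2-fold on the lower side was PDIA3 (−1.41), a disulfide isomerase, and the folding proteins P4HB, CANX and CALR had −0.88, −0.80 and −0.74, in the direction of HSPA5. CHAC1, a glutathione-degrading enzyme induced by ATF4, had 6.14 and 6.07 at 24 h and 5.92 and 12.25 at 48 h, a difference of 6.33, and its other probe a bound of 4.62. XBP1 and DDIT3, transcription factors of the unfolded protein response, differed by 2.91 and 2.53. ATF3, a stress-induced transcription factor, differed by 7.02 at its brightest probe, but its other probes gave 4.88, 4.42 and −0.06, so the size depended on the probe.

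**Figure D4:**
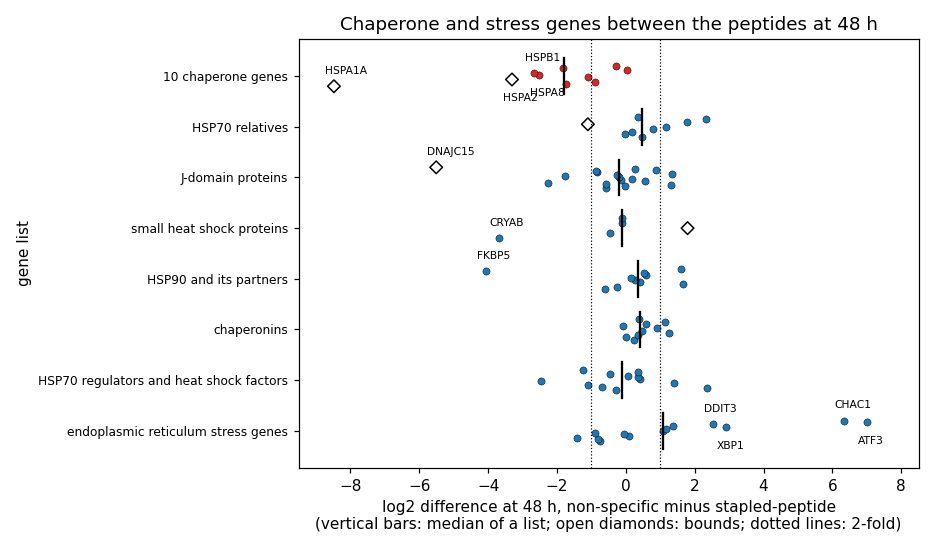
Log2 difference between the peptides at 48 h, non-specific minus stapled, of the 10 chaperone genes (red) and of 7 lists of related genes (blue), 1 point per gene; vertical bars are list medians, open diamonds are bounds and dotted lines mark 2-fold. The members lie mostly left of 0, with a median of −1.78, while the medians of the other lists lie between −0.21 and 1.07.

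The genes whose pattern over the 4 arrays was most like that of HSPA1A were sought among 15286 genes well above background on at least 3 arrays, by the root mean square distance of log2 signals centred on each gene's mean. CSF3, a granulocyte growth factor, had a distance of 0.034, ARHGDIB 0.048, OCIAD2 0.088 and KRT6A, a keratin of stratified epithelium, 0.096. CSF3 had log2 signals of 11.82 and 11.90 at 24 h and of 11.88 and 1.85 at 48 h. The distances use signals as measured, and all of these genes, like HSPA1A, were not well above background on that last array, so their order has no weight. None of these 4 genes is a chaperone.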

How the data were processed

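RNA of samples named as MCF-10A cells was labelled with Cy3 and hybridized to 4 single-colour Agilent arrays. Per the file headers and the values, the deposited intensity of a spot is the background-subtracted signal that the authors' scanner software wrote, with no normalization between arrays. The headers name Feature Extraction 10.7.1.1 and the submitters' notes version 9.5. The probe grid was built on GRCh37. After removal of control and outlier-marked spots, a probe's log2 values were averaged over its spots, and the 50590 probes with a value on all arrays were quantile-normalized, as the methods state. Probes were named through RefSeq accessions (28170 probes).

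A probe counted as well above background by the mark of the majority of its spots. A probe dim on 1 array of a comparison was set there to at least the lowest signal of any probe that passed background on that array, which makes the difference a bound. Of several probes of a gene the brightest on average was used, and a call was a difference of at least 2-fold. Levels of different probes were not compared. The members and lists were chosen with earlier results of these data known. Named were all 10 members, at most 4 genes of a list by size of the difference at 48 h among those at least 2-fold apart, and the 5 genes most like HSPA1A, of which 1 is not reported here; HSF1, HSPA6, BAG4, PDIA3, P4HB, CANX and CALR were named after their values were seen. Of 82 listed chaperone and stress genes, 3 had no matched probe. Further marker lists had summed log2 signals at 48 h, stapled-peptide first, of 16.55 and 12.82 for luminal epithelium, 14.89 and 7.51 for fibroblast, 10.56 and 6.92 for immune cells and 9.54 and 5.96 for endothelium, with 5 of 5, 3 of 6, 3 of 4 and 2 of 4 genes well above background on the second array. Promoter letters came from RefSeq (GRCh38.p14); protein and probe sequences were not used here. The steps were tested on simulated arrays with known changes in a small share of probes of middle brightness. Far more genes passed 2-fold at 48 h, so the normalization was not tested at that scale. Python 3.11.15, numpy 2.4.6, pandas 2.3.3, matplotlib 3.10.9 and, for normexp with an offset of 50, limma 3.58.1 in R 4.3.3 were used. The closing section gives 9 alternatives. The number of arrays limits the precision.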

Additional observations from a re-analysis of the deposited data

Results flagged for a closer look

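Several members differed in opposite directions at 24 h and 48 h, non-specific minus stapled, with 1 array behind each value, so the difference between the times was not tested. HSPA1A had 0.04 at 24 h and −8.48 at 48 h, HSPA1B 0.05 and −1.74, HSPA8 0.01 and −2.53, HSPA5 0.00 and −1.09, and HSP90AA1 0.08 and −0.29. The values at 24 h are all 0.08 or less, so the change of sign rests on values close to 0.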

How the results depend on the processing

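No paired analysis was possible because each condition has 1 array, which leaves no residual degrees of freedom. The number of members at least 2-fold lower at 48 h, 7, was 1 at 10-fold, where HSPA2 has a bound of 9.90-fold. The median difference at 48 h, −1.78, was −1.42 when probes dim on an array were dropped, which removes HSPA1A and HSPA2. Of 20 differences of single members at 24 h and 48 h, 3 moved by more than 0.34, the SD of the differences of all genes at 24 h, under normexp (HSPA1A, HSPA2 and HSPA1L), 1 under scaling to the 75th percentile (HSPA1A, −8.83) and 1 without the bound (HSPA1A, −9.96). None of the alternatives run turned the direction of a 48 h difference of a member that passed 2-fold. Signs close to 0 at 24 h did turn. HSPA8 went from 0.01 to −0.04 and HSPA5 from 0.00 to −0.02 without normalization between arrays, and HSPA1B from 0.05 to −0.04 under normexp. Without normalization between arrays the median of all genes at 48 h was 0.26, and 16.3% of genes were at least 2-fold lower and 27.2% higher, against 19.8% and 21.2%. The members' median was then −1.53. The series' combined table has the same signals and tested nothing further.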
